A study of Homo sapiens with 6 samples.

Results

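The members described here are the peak regions of the RNA helicase DHX9 on the human mitochondrial chromosome, placed on its 37 genes and split by strand. All lines of the deposited peak lists that name the mitochondrial chromosome were taken, which gave 104 peaks of 28449 in all. The list of the antibody DHX9-Rb held 54 of them (of 21618) and that of the antibody DHX9-mAb held 50 (of 6831). The peaks come from HEK293, a widely used cell line of human embryonic kidney origin, with no treatment or genetic change named in the labels. The assay was FLASH, in which living cells are irradiated so that RNA is fixed to bound proteins, DHX9 is captured on antibody-coated beads, and the RNA fragments that come with it are sequenced. Each of the 2 antibodies against DHX9 and the control immunoglobulin IgG-Rb had 2 biological replicates. Both replicates of an antibody stand behind a single list, and values of the IgG-Rb samples were not analysed here, so no replicate error, background level or test between the antibodies can be given. The lists hold positions and strands in the assembly hg19, with no height, fold or depth per peak. A covered share below is therefore the part of a gene that lies inside peaks, not an amount of RNA.

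The mitochondrial genome is a small circle that encodes core subunits of the respiratory chain together with the rRNAs and tRNAs that translate them. Both of its strands are transcribed as long precursors from promoters in the control region, and the tRNAs between the other genes are cut out to release the mRNAs and rRNAs. Heavy-strand transcripts, which here lie on the plus strand, carry 28 genes: both rRNAs, 12 mRNAs and 14 tRNAs. Light-strand transcripts, on the minus strand, carry MT-ND6 and 8 tRNAs, and the rest of their length is antisense to heavy-strand genes. Such antisense RNA is known to be removed quickly in mitochondria and can pair with heavy-strand RNA. DHX9 unwinds double-stranded RNA and is known mainly as a nuclear protein.

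Gene bounds came from an annotation of another assembly, GRCh38, in which the mitochondrial sequence may differ from that of hg19 by a few bases. No gene position is therefore printed, and every position below is that of a peak as deposited. Moving all gene bounds by 5 nt to either side changed the covered share of an rRNA or mRNA by at most 1.93 percentage points and that of a tRNA by at most 8.47. The strand was taken as the files give it. Both rRNAs lie on the plus strand, and together they were covered over 72.8% (DHX9-Rb) and 86.1% (DHX9-mAb) of their length on that strand against 6.76% and 5.25% on the other.

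The tRNA genes below are shown because they hold a site marked on both strands and a neighbouring pair of which a single member was marked on its own strand, in both lists. MT-TC and MT-TY, the tRNAs for cysteine and tyrosine, lay side by side on the minus strand and were covered on both strands by both antibodies. MT-TI, the tRNA for isoleucine, was covered on its own strand by both antibodies, while MT-TQ, the tRNA for glutamine, which abuts it on the opposite strand, was not covered on its own strand by either. The sequences are those of the GENCODE 29 transcripts of the same names, 5′ to 3′, and capitals mark the bases that the annotation gives to both genes of a pair (3 for MT-TI and MT-TQ, 1 for MT-TC and MT-TY).
MT-TC: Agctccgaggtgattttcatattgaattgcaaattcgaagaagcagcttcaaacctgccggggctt
MT-TY: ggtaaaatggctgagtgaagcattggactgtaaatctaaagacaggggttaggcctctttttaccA
MT-TI: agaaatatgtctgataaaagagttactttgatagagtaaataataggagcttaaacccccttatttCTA
MT-TQ: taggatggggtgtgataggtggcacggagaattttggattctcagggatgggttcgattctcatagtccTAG

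Peaks of both antibodies covered both strands, the plus strand along most of its length and the minus strand mainly in the part from MT-TG to MT-TP. DHX9-Rb had 35 plus-strand and 19 minus-strand peaks, and DHX9-mAb had 31 and 19. From MT-TG to MT-TE, the stretch of 11 genes around MT-ND3, MT-ND4, MT-ND5 and MT-ND6, the minus strand was covered over 68.1% with DHX9-Rb and 82.4% with DHX9-mAb. From MT-CYB to MT-TP it was covered over 74.4% and 78.9%. The minus strand was far less covered in the stretches before these. It was covered over 8.47% and 7.59% from MT-TF to MT-TL1, the stretch of the rRNAs, and over 16.8% and 7.88% from MT-TA to MT-CO3. The plus strand was lowest from MT-ND1 to MT-TW, at 31.5% with DHX9-Rb and 38.2% with DHX9-mAb, and there the minus strand reached 36.2% and 27.1%. From MT-TA to MT-CO3 the plus strand was almost as low with DHX9-mAb, at 38.8%, but not with DHX9-Rb, at 62.0%. These stretches were chosen after the map had been seen.

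**Figure D1:**
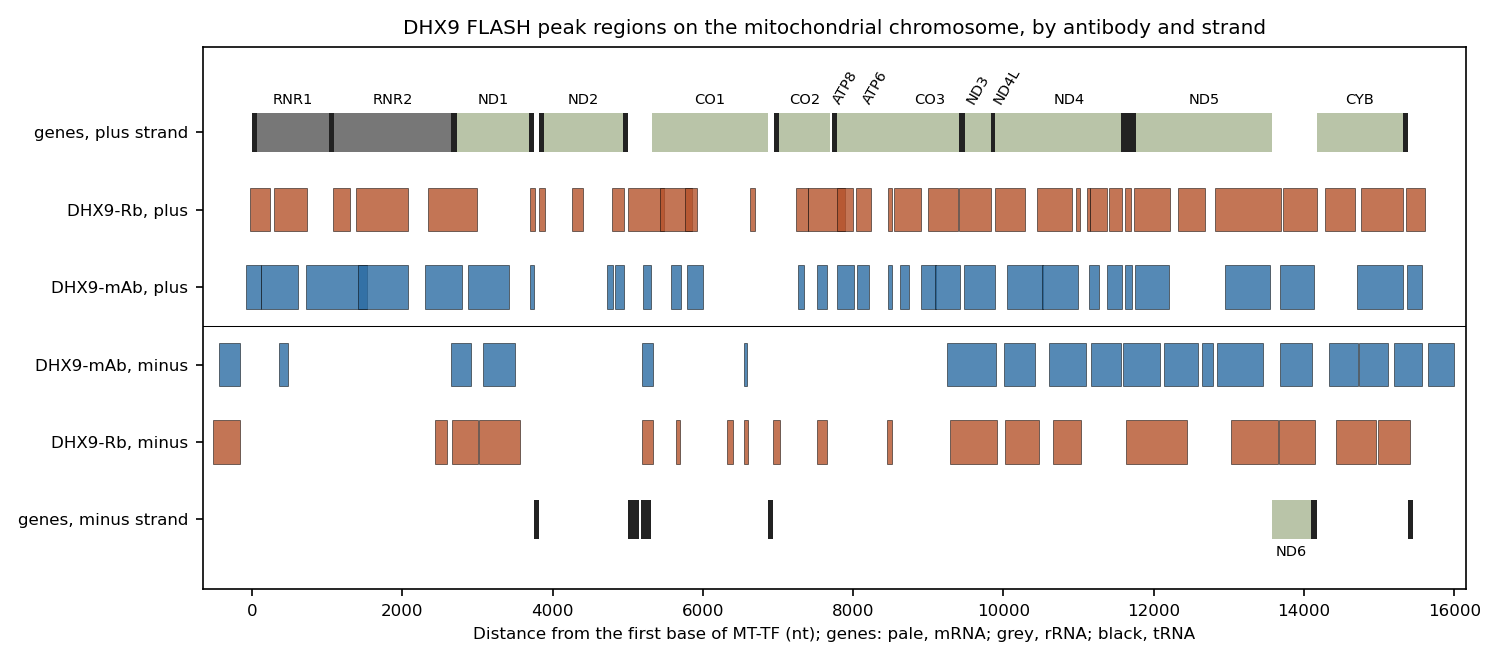
Peak regions of both antibodies (boxes, orange for DHX9-Rb and blue for DHX9-mAb) on the plus and minus strand of the mitochondrial chromosome, with the genes of each strand, against the distance in nt from the first base of MT-TF; the circle is cut open within the control region. From MT-TG to MT-TE the minus strand is covered over 68.1% (DHX9-Rb) and 82.4% (DHX9-mAb), against 8.47% and 7.59% from MT-TF to MT-TL1. Plus-strand peaks lie in all parts of the gene order but leave gaps, with the lowest shares from MT-ND1 to MT-TW (31.5% and 38.2%).

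Most plus-strand coverage lay on genes of that strand, and most minus-strand coverage lay opposite genes. Of the 10682 plus-strand nt in DHX9-Rb peaks, 9501 (88.9%) lay on plus-strand genes, and of the 9115 nt in DHX9-mAb peaks 8286 (90.9%) did. On the minus strand DHX9-Rb covered 6333 nt, of which 716 (11.3%) lay on minus-strand genes and 5245 (82.8%) were antisense to plus-strand genes only. DHX9-mAb covered 6833 nt there, with 604 (8.84%) on minus-strand genes and 5474 (80.1%) antisense only. Minus-strand peaks thus fell largely on light-strand sequence that encodes no annotated gene, but such sequence also makes up most of that strand. Plus-strand genes take up 14285 nt and minus-strand genes 1076 nt. By share of length, minus-strand genes were covered over 66.5% (DHX9-Rb) and 56.1% (DHX9-mAb) on their own strand. Sequence opposite plus-strand genes was covered less, over 36.7% and 38.3%. The 8 minus-strand tRNAs alone were covered over 35.4% and 34.3%. Counted by peaks, 14 of the 19 minus-strand peaks of DHX9-Rb and 14 of the 19 of DHX9-mAb touched no minus-strand gene by 10 nt or more but lay opposite at least 1 plus-strand gene.

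**Figure D2:**
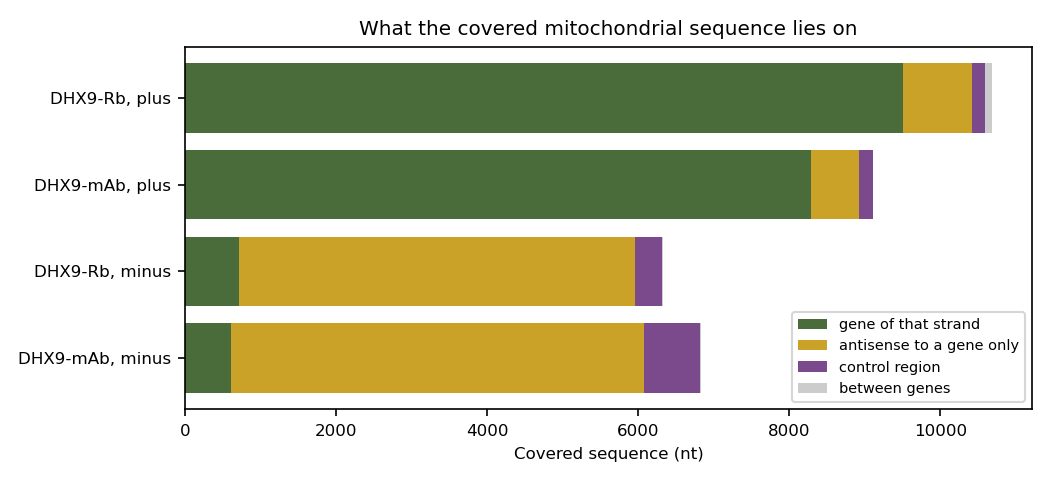
Covered sequence in nt (horizontal bars) for each antibody and strand, divided by what it lies on: a gene of that strand, sequence antisense to a gene only, the control region, or sequence between genes. The minus-strand bars consist mainly of antisense sequence (5245 nt in the DHX9-Rb list, 5474 nt in the DHX9-mAb list).

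Counting a gene as covered when peaks of each antibody held at least 50% of it, 15 of the 37 genes (40.5%) were covered on their own strand and 16 (43.2%) on the opposite strand. Of these, 8 genes were covered on both strands by both antibodies: MT-TL1, MT-TC, MT-TY, MT-ND3, MT-TS2, MT-ND5, MT-ND6 and MT-CYB. On the opposite strand, 2 of the 12 plus-strand mRNAs, MT-ND2 and MT-ATP8, had no peak of either antibody.

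The rRNAs were covered mainly on their own strand. MT-RNR1, the RNA of the small ribosomal subunit, was covered over 64.3% with DHX9-Rb and 87.7% with DHX9-mAb. MT-RNR2, the RNA of the large subunit, was covered over 78.1% and 85.1%. Both values were higher with DHX9-mAb, the antibody with the shorter list. The opposite strand of MT-RNR1 held no DHX9-Rb peak and a single DHX9-mAb peak, from 937 to 1059, which covered 12.9% of the gene. The opposite strand of MT-RNR2 was covered over 10.9% with DHX9-Rb, by a peak from 3009 to 3178 near its 3′ end, and over 0.577% with DHX9-mAb. Between 1060 and 3008 neither antibody had a minus-strand peak, the longest such stretch of the chromosome at 1949 nt.

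The complex I genes, which encode subunits of the NADH dehydrogenase at the entry of the respiratory chain, were unlike each other. MT-ND3 was covered over its whole length, 100%, on both strands by both antibodies. MT-ND5, the longest mRNA gene of the chromosome at 1812 nt, was covered over 86.4% with DHX9-Rb and 57.8% with DHX9-mAb on its own strand and over 67.3% and 85.0% on the opposite strand. The 2 antibodies thus ordered the strands of MT-ND5 in opposite ways. MT-ND4 was covered over 75.7% with DHX9-Rb and 81.0% with DHX9-mAb on its own strand and over 48.8% and 81.6% on the opposite strand, so that its strands were nearly level in the DHX9-mAb list. MT-ND4L was covered over 100% and 47.8% on its own strand and over 62.0% and 65.0% on the opposite strand.

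At the other end of this group stood MT-ND1 and MT-ND2, the first mRNA genes after the rRNAs. MT-ND1 was covered over 28.5% with DHX9-Rb and 63.8% with DHX9-mAb on its own strand, and its opposite strand was covered over 86.1% and 64.3%. It was the 1 mRNA gene of the plus strand that both antibodies covered more on the opposite strand, although with DHX9-mAb the values differed little. MT-ND2 had the lowest share of all mRNA genes on its own strand, 28.1% and 18.0%, and none on the opposite strand. MT-ND6, the only mRNA of the light strand, was covered over 99.2% with DHX9-Rb and 79.0% with DHX9-mAb on its own strand. The strand opposite MT-ND6, which encodes no gene there, was covered almost as much, 93.3% and 79.0%. Over the whole group of 7 genes, the own strands were covered over 68.2% and 60.8% and the opposite strands over 58.7% and 66.6%.

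Complex IV genes, for cytochrome c oxidase, were covered mainly on their own strand. MT-CO1, the catalytic subunit, was covered over 42.3% with DHX9-Rb and 21.9% with DHX9-mAb, and over 12.3% and 3.37% on the opposite strand. MT-CO2 was covered over 64.2% and 31.4%, and its opposite strand over 20.9% with DHX9-Rb and not at all with DHX9-mAb. MT-CO3 had the highest shares of the group on its own strand, 87.0% and 78.4%, and its opposite strand was covered over 15.8% and 21.0%. Within and around MT-CO1 lay 2 long plus-strand stretches without a peak of either antibody, from 6580 to 7210 and from 7275 to 7821. At 631 nt and 547 nt they were the longest within the span of the genes. They were parted by a single DHX9-Rb peak from 7211 to 7274. The control region was left out of this ranking, and no plus-strand peak of either antibody lay there after 16181 or before 504. The 3 genes together were covered over 58.9% and 38.8% on their own strand and over 15.2% and 7.21% on the opposite strand.

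MT-ATP8 and MT-ATP6 encode ATP synthase subunits from a shared mRNA. MT-ATP8 was covered over 100% on its own strand by both antibodies and over none of the opposite strand. MT-ATP6 was covered over 56.4% with DHX9-Rb and 40.1% with DHX9-mAb on its own strand. Opposite MT-ATP6 lay a DHX9-Rb peak of 71 nt, from 9025 to 9095, and no DHX9-mAb peak. It faced a plus-strand site marked by both antibodies, from 9039 to 9094 with DHX9-Rb and from 9042 to 9094 with DHX9-mAb, with the last base in common.

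MT-CYB, the cytochrome b of complex III, had peaks of 373 to 609 nt on either strand in both lists. Its own strand was covered over 84.6% with DHX9-Rb and 52.9% with DHX9-mAb, and the opposite strand over 75.0% and 76.4%. On the plus strand both lists had a peak over the 3′ part of the gene that ended at the same base, 15892. It began at 15337 with DHX9-Rb and at 15284 with DHX9-mAb. A second DHX9-Rb peak over the gene, from 14849 to 15257, had no partner in the other list.

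**Figure D3:**
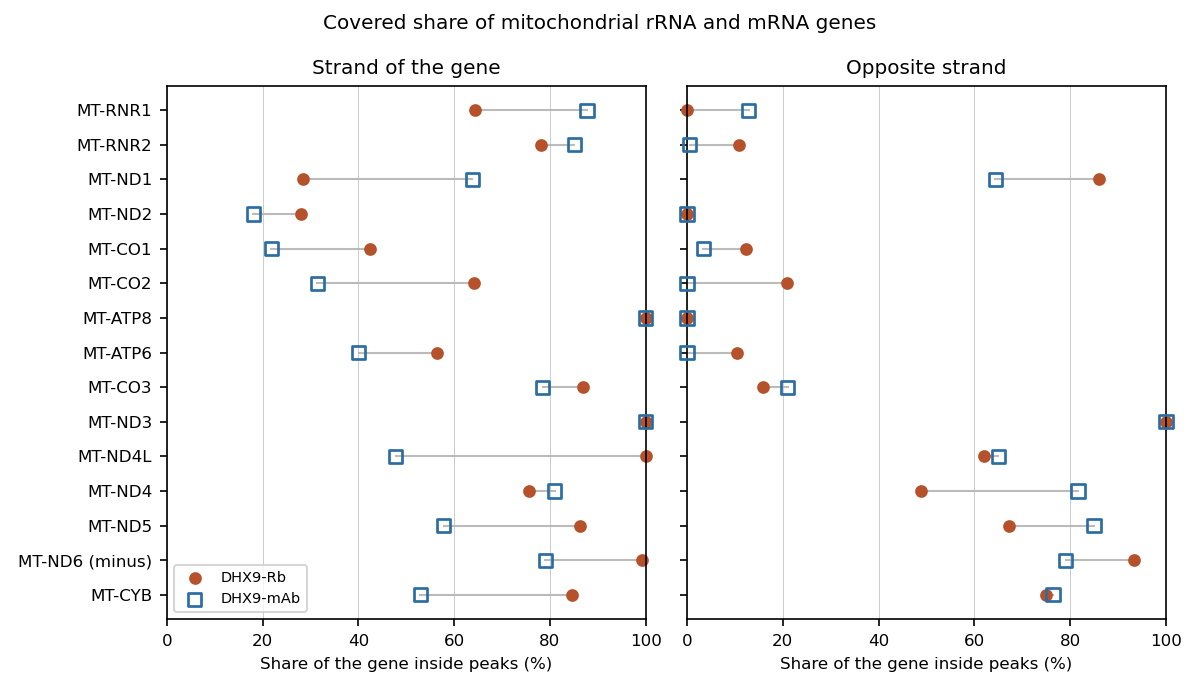
Share of each rRNA and mRNA gene inside peaks (percent, horizontal axis), on the strand of the gene (left) and on the opposite strand (right), with filled circles for DHX9-Rb and open squares for DHX9-mAb; each point is a single list. On the opposite strand the rRNA, complex IV and ATP synthase genes stay at or below 21.0%, while MT-ND1, MT-ND3, MT-ND4L, MT-ND4, MT-ND5, MT-ND6 and MT-CYB lie between 48.8% and 100%.

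The tRNA genes are 59 to 75 nt long, shorter than most peaks, and many were covered by peaks that also held their neighbours. On the opposite strand most were covered whole or not at all. There 11 of the 22 lay at 100% and 8 at 0 with DHX9-Rb, and 7 and 10 with DHX9-mAb. Partial coverage was more common on their own strand, with 7 at 100% and 4 at 0 (DHX9-Rb) and 6 and 7 (DHX9-mAb). On their own strand 10 of the 22 tRNAs reached 50% with DHX9-Rb and 9 with DHX9-mAb, and 6 did so with both. These were MT-TF, MT-TL1, MT-TI and MT-TS2 of the plus strand and MT-TC and MT-TY of the minus strand. MT-TI, MT-TS2 and the pair of MT-TC and MT-TY had narrow peaks of their own in both lists. The MT-TI peaks ran from 4275 to 4345 (71 nt) with DHX9-Rb and from 4276 to 4335 (60 nt) with DHX9-mAb, close to the 69 nt of the gene printed above. The peaks over MT-TS2, which also held parts of MT-TH and MT-TL2, ran from 12194 to 12278 and from 12196 to 12281. At these places the lists differed by 10 nt or less at either end.

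MT-TC and MT-TY were the only tRNAs of the minus strand that reached 50% on their own strand in both lists. A minus-strand peak began at 5774 in both lists and ended at 5908 with DHX9-Rb and at 5916 with DHX9-mAb. It covered 80.3% of MT-TC and 100% of MT-TY with each antibody. The plus strand opposite them was covered as well, by a DHX9-mAb peak from 5785 to 5890 and within a longer DHX9-Rb peak from 5581 to 6061. That DHX9-Rb peak also lay opposite MT-TA and MT-TN, the tRNAs for alanine and asparagine of the same cluster, which neither antibody marked on their own strand. MT-TQ and MT-TD, the tRNA for aspartate, likewise had no peak on their own strand in either list.

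On the opposite strand 10 of the 22 tRNAs reached 50% in both lists. MT-TL1, MT-TG, MT-TR, MT-TS2, MT-TL2 and MT-TT, which are genes of the plus strand, lay opposite minus-strand peaks of 271 to 804 nt. MT-TC, MT-TY, MT-TE and MT-TP, which are genes of the minus strand, lay opposite plus-strand peaks. At 6 plus-strand tRNAs and 1 minus-strand tRNA no peak of either antibody lay on the opposite strand.

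Single tRNAs made up the largest differences between the antibodies. MT-TM and MT-TK, the tRNAs for methionine and lysine, were covered over 100% with DHX9-Rb and not at all with DHX9-mAb. MT-TR, the tRNA for arginine, was covered over 6.15% with DHX9-Rb and 95.4% with DHX9-mAb, and the plus-strand peak over MT-ND3 ended at 10407 and at 10466 in these lists. MT-TG, the tRNA for glycine on the other side of MT-ND3, showed the opposite order, 100% with DHX9-Rb and 7.35% with DHX9-mAb, and the same peaks began at 9988 and at 10057. MT-TV, the tRNA for valine between the rRNAs, was covered over 21.7% and 100%. At MT-TR and MT-TG a shift of a peak end by about a tRNA length is enough for such a difference. The other tRNAs differed otherwise. MT-TM lay in a DHX9-Rb peak without a partner (4402 to 4478). MT-TK lay within a DHX9-Rb peak (7982 to 8470), between DHX9-mAb peaks that ended at 8225 and began at 8365. The peaks over MT-TV began at 1656 with DHX9-Rb and at 1303 with DHX9-mAb. None of these differences has a replicate check here.

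**Figure D4:**
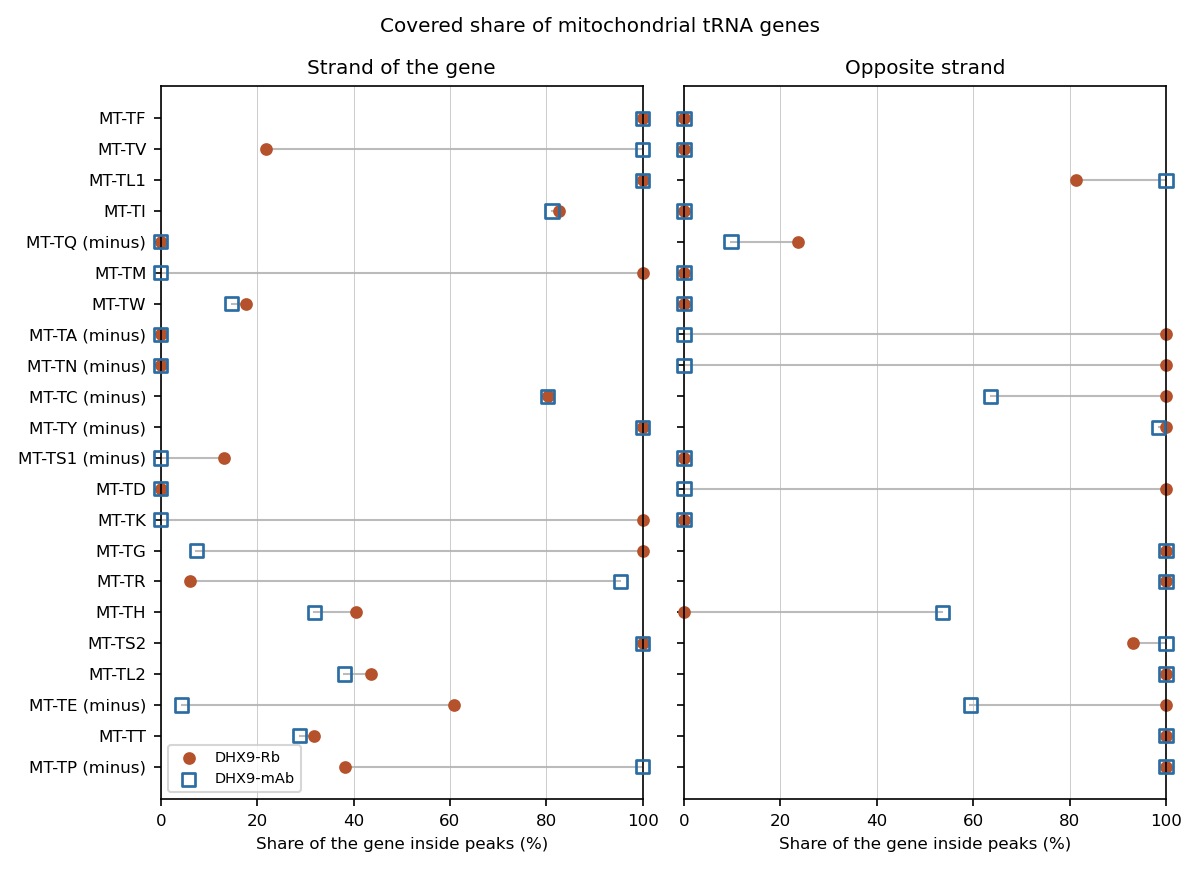
Share of each tRNA gene inside peaks (percent, horizontal axis), on the strand of the gene (left) and on the opposite strand (right), with filled circles for DHX9-Rb and open squares for DHX9-mAb; genes of the minus strand are marked. On the opposite strand points sit mostly at 0 or 100%, while partial coverage is more common on the strand of the gene. Grey lines join antibodies that differ, as for MT-TM, MT-TK, MT-TG and MT-TR.

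The control region, which holds the promoters and an origin of replication, was covered more on the minus strand than on the plus strand. Before the first gene, both lists had a minus-strand peak, from 66 to 418 with DHX9-Rb and from 137 to 415 with DHX9-mAb. These touched no gene, and light-strand transcription is known to start in this part of the circle. At the other end of the region DHX9-mAb had a minus-strand peak from 16231 to 16565 with no DHX9-Rb partner. Another DHX9-mAb minus-strand peak, from 15776 to 16148, lay over MT-TP and opposite MT-CYB and MT-TT and ran on into the region. In all, control region sequence took up 353 nt of the minus strand with DHX9-Rb and 739 nt with DHX9-mAb, against 183 nt and 190 nt of the plus strand. The plus-strand sequence belonged to peaks that ran on from neighbouring genes, from 552 to 812 and from 504 to 698 over MT-TF and MT-RNR1, and from 15938 to 16181 and from 15940 to 16140 over MT-TT.

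The antibodies were compared peak by peak. A same-strand overlap of at least 1 nt with the other list was found for 43 of the 54 DHX9-Rb peaks, 79.6% (95% Wilson interval 67.1 to 88.2), against 28.6% of the whole DHX9-Rb list. It was found for 46 of the 50 DHX9-mAb peaks, 92.0% (81.2 to 96.8), against 88.0% of the whole list. The DHX9-mAb share on the mitochondrial chromosome was thus close to that of its list. The DHX9-Rb share was higher than that of its list, and its peaks were also wider and denser here, which gives more room to overlap; the part of width and density in it was not tested. The intervals cover counting error only, and peaks of the same transcript are not independent.

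By strand, all 31 plus-strand DHX9-mAb peaks had a DHX9-Rb partner, and 15 of the 19 minus-strand peaks had. The 4 without were those from 937 to 1059 opposite MT-RNR1, from 11737 to 12139 opposite MT-ND4, from 13213 to 13360 opposite MT-ND5, and the control region peak from 16231. In the DHX9-Rb list, 5 of 35 plus-strand peaks and 6 of 19 minus-strand peaks had no partner. The plus-strand ones lay over MT-TM (4402 to 4478), MT-ND2 (4843 to 4985), MT-CO1 (7211 to 7274), MT-ND5 (12903 to 13257) and MT-CYB (14849 to 15257). The minus-strand ones lay opposite MT-RNR2 (3009 to 3178), MT-CO1 (6215 to 6277 and 6905 to 6976), MT-TD and MT-CO2 (7506 to 7600), MT-CO2 (8097 to 8224) and MT-ATP6 (9025 to 9095). Of these 6, 5 were narrower than the 150 nt used below as a limit for narrow peaks. All of them lay ahead of MT-CO3, in the part of the chromosome where the minus strand was little covered, whereas 3 of the 4 unpaired DHX9-mAb peaks lay in the other part or in the control region.

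Gene by gene, the lists differed by strand. On their own strand 9 of the 13 mRNA genes were covered less with DHX9-mAb, 2 more (MT-ND1 and MT-ND4) and 2 equally (MT-ATP8 and MT-ND3), with a median difference of -16.3 percentage points (DHX9-mAb minus DHX9-Rb). On the opposite strand 5 were covered less, 5 more and 3 equally, with a median difference of 0. The minus strand as a whole had 6833 nt inside DHX9-mAb peaks and 6333 nt inside DHX9-Rb peaks, so the shorter list covered slightly more of it. With DHX9-mAb 5 of the 12 plus-strand mRNAs had the higher share on the opposite strand (MT-ND1, MT-ND4L, MT-ND4, MT-ND5 and MT-CYB), and with DHX9-Rb only MT-ND1 did. With 1 list for each antibody this difference was not tested.

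Coverage of both strands at the same position was read in each list and in both together. DHX9-Rb peaks lay on both strands over 4599 nt, which is 72.6% of its minus-strand sequence, and DHX9-mAb peaks over 4520 nt, 66.1% of its minus-strand sequence. Peaks of both antibodies lay on both strands over 3033 nt in 19 runs. The longest runs were over MT-ND5 (13608 to 14033, 426 nt), MT-ND6 (14302 to 14676, 375 nt), MT-ND3 (10057 to 10407, 351 nt) and MT-TL2 with MT-ND5 (12326 to 12664, 339 nt). In the part of the chromosome with the rRNAs, MT-ND1, MT-ND2 and MT-CO1, the only runs were over MT-TL1 and MT-ND1 (3244 to 3371 and 3458 to 3491) and over MT-TC and MT-TY (5785 to 5890). Counted by peaks, 32 of the 54 DHX9-Rb peaks (59.3%) had a peak of their own list opposite them, against 0.666% of the whole list. For DHX9-mAb it was 31 of 50 (62.0%) against 0.644%. The whole lists include the mitochondrial peaks, and held 144 (DHX9-Rb) and 44 (DHX9-mAb) facing peaks in all. Plus-strand peaks alone covered 10682 nt (DHX9-Rb) and 9115 nt (DHX9-mAb) of the 16565 nt up to the last mitochondrial base in a peak. Such dense coverage gives much room for peaks to face each other, and its part in these shares was not tested. Facing peaks say that peaks were called on both strands. The lists do not show how much RNA of either strand was recovered, or whether such RNAs were paired.

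The mitochondrial peaks included some of the widest of each list. At least 400 nt was reached by 22 of the 54 DHX9-Rb peaks (40.7%), against 7.68% of the whole list, and by 21 of the 50 DHX9-mAb peaks (42.0%) against 6.05%. The widest DHX9-mAb peak of all, 810 nt from 1303 to 2112, ran from MT-RNR1 across MT-TV into MT-RNR2. The next on that strand were 660 nt within MT-RNR2 (1991 to 2650) and 609 nt over MT-CYB (15284 to 15892). The widest plus-strand DHX9-Rb peak, 872 nt from 13395 to 14266, ran over MT-ND5 and into the sequence opposite MT-ND6, and only 1 peak of that list was wider. It was followed by 694 nt in MT-RNR2 (1960 to 2653) and 659 nt from MT-RNR2 across MT-TL1 into MT-ND1 (2920 to 3578). Peaks that ran across a tRNA thus joined both rRNAs, and the large rRNA with MT-ND1.

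On the minus strand the widest peaks were antisense to mRNA genes. For DHX9-Rb they were 804 nt opposite MT-TS2, MT-TL2 and MT-ND5 (12211 to 13014), 625 nt mainly opposite MT-ND5 (13608 to 14232) and 621 nt opposite MT-CO3, MT-TG, MT-ND3, MT-TR and MT-ND4L (9867 to 10487). For DHX9-mAb they were 652 nt opposite MT-CO3, MT-TG, MT-ND3 and MT-TR (9826 to 10477), 617 nt opposite MT-ND5 (13417 to 14033) and 493 nt opposite MT-TH, MT-TS2, MT-TL2 and MT-ND5 (12172 to 12664). The peak opposite MT-ND3 spanned the tRNAs on either side of that gene in both lists. On the plus strand the MT-ND3 peak held MT-TG in the DHX9-Rb list and most of MT-TR in the DHX9-mAb list.

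The mitochondrial strands were set beside the densest place of the nuclear genome in the same list, using windows of 16565 nt, the last mitochondrial base in a peak. With DHX9-Rb the highest nuclear window held 11169 nt of peaks on 1 strand, on chromosome 1, slightly more than the 10682 nt of the mitochondrial plus strand. With DHX9-mAb the highest held 8116 nt, on chromosome 19, less than the 9115 nt of the mitochondrial plus strand. Single-strand coverage of this density thus also occurred in a nuclear window with DHX9-Rb, but in none with DHX9-mAb. Coverage of both strands was lower in nuclear windows with either antibody. The best nuclear window held 4250 nt on its less covered strand with DHX9-Rb (chromosome 1) and 1235 nt with DHX9-mAb (chromosome 22), against 6333 nt and 6833 nt on the mitochondrial minus strand. These are descriptions of single lists, and how reads that match both mitochondrial and nuclear copies were treated is not given in the sources used here.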

How the data were processed

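Reads were aligned with Bowtie2 2.2.6 to hg19, per the submitters' processing notes, and peaks were called with PEAKachu, per the second column of the files. Its settings, its control and its handling of replicates are not given by the labels or files. Each deposited line gives where a peak starts and ends, counted from 1, and its strand. The score column held a number in 0 lines, so no stricter threshold could be set and depth is unknown. Per the labels, random bases served to merge PCR duplicates, and IgG and DHX9 samples were combined ahead of reverse transcription, so the libraries are not fully separate.

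Genes came from GENCODE 29 (GRCh38). All 37 listed genes matched by symbol. Covered shares, overlaps and runs were computed with Python 3.11.15, NumPy 2.4.6 and SciPy 1.17.1, and figures with matplotlib 3.10.9. Interval functions were tested on simulated data. No test was run, since each antibody has 1 list. All genes are accounted for: rRNAs and mRNAs singly, tRNAs by counts, named when covered on the minus strand in both lists or free of peaks on their own strand. The 3 widest peaks of a strand and those without a partner are named. tRNAs with large differences between antibodies, and the stretches and windows, were chosen after their values were seen. The members and lists were chosen with earlier results of these data known.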

Additional observations from a re-analysis of the deposited data

How the results depend on the processing

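Of 31 alternative values for 11 results, 25 stayed within 1.5 times the reported value. The counts of covered genes were the same 15 and 16 genes with gene bounds moved by 5 nt either way. With a required share of 20%, the own strand was covered at 25 genes and the opposite strand at 17. With 80%, the own strand was covered at 8 genes and the opposite strand at 9. With peaks under 150 nt left out, the own strand was covered at 11 genes and the opposite strand at 14. The genes lost on their own strand were MT-TI, MT-TS2, MT-TC and MT-TY, whose peaks there were all narrower than this. MT-TC and MT-TY were also those lost on the opposite strand, where the DHX9-mAb peak had 106 nt. Joining peaks within 50 nt turned the 35 plus-strand DHX9-Rb peaks into 21. Without peaks under 150 nt, 12 of the 19 minus-strand DHX9-Rb peaks and 20 of the 31 plus-strand DHX9-mAb peaks remained. Positions covered on both strands by both antibodies ranged from 2215 nt, with peaks cut by 25 nt at both ends, to 3296 nt, with peaks within 50 nt joined. No paired analysis was possible because each list combines both replicates of an antibody, and for the same reason no replicate could be left out. Depth is unknown, so a stretch without peaks shows only that none was called there.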

Other observations

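Some plus-strand peak ends lay close to the bounds of plus-strand genes, and most did not. Within the span of the genes, 10 of the 68 plus-strand DHX9-Rb peak ends (14.7%) and 11 of the 60 DHX9-mAb peak ends (18.3%) lay within 10 nt of such a bound, whereas 4.93% of the positions of the span do. On the minus strand it was 1 of 36 and 1 of 33 peak ends, against 2.06% of positions. The comparison was chosen after the peaks had been seen, the gene bounds may be off by a few bases, and no test was made.

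Where a peak of each list had a single partner in the other, the ends were compared. On the mitochondrial chromosome 11 of 21 such pairs (52.4%) matched within 10 nt at an end or better, and 5 (23.8%) did so at both ends. On all other sequences 35.7% and 5.95% of 4535 pairs did. The median difference of an end was 22 nt on the mitochondrial chromosome and 38 nt elsewhere. The closest pairs included those over MT-TI, MT-TS2, MT-TC with MT-TY, and a site opposite MT-CO1 (7123 to 7172 with DHX9-Rb and 7130 to 7168 with DHX9-mAb).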
